A study of Mus musculus with 28 samples.

Results

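The 34 interferon-stimulated genes described here were chosen by name, and all 34 were found among the 43280 rows of the deposited tables. Their levels were followed in 28 mouse libraries of polyadenylated RNA. Of these, 18 were made from the whole testes of CD1 mice with a NANOS2 KO, with 2 libraries on each of 9 days (42 to 50 days after retinoic acid); the labels call the cell type Sertoli and the environment deficient in germ cells. The other 10 came from sorted Sertoli cells, the somatic nurse cells of the seminiferous tubule, isolated by a red fluorescent protein. The sorted cells came from mice heterozygous for RFP and positive for Amh-Cre, a recombinase driven by the promoter of a Sertoli cell gene, with a C57BL/6 x 129s4/SvJae strain label for 9 libraries and a C57BL/6 x Amh-Cre background label for group A replicate 1. Each of 5 groups holds 2 libraries enriched for some stages of the cycle of the seminiferous epithelium: stages XI-XII in group A, stages I-III in group B, stages IV-VI in group C, stages VII-VIII in group D and stages IX-X in group E. All animals, of both genotypes, had received WIN 18,446, an inhibitor of retinoic acid synthesis, for 7 days and retinoic acid on the next day, so no library comes from an untreated testis, and no whole testis with germ cells was among the samples.

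Interferons are secreted cytokines of the antiviral and antibacterial defence. Type I and type III interferons act through JAK kinases on a complex that includes STAT2 and IRF9 and binds the interferon-stimulated response element of target genes, while interferon gamma acts mainly on gamma-activated sites and raises IRF1. The targets include sensors of foreign RNA, enzymes that degrade or block it, and large GTPases that attack vacuoles with pathogens. In the testis, Sertoli, Leydig and peritubular cells and macrophages are known to respond to interferons.

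Promoters of 4 members are printed to show the 2 kinds of site: Igtp, Gbp2 and Irf1 were among the members high in 1 library described below, while Ifit1 had at most 7 counts in any library. They are RefSeq sequences of GRCm38.p6, each 250 bases before to 50 bases after the annotated start, on the strand of the gene. Capitals mark matches, on either strand, to the core of the interferon-stimulated response element, GAAA and again GAAA after 2 bases of any kind, and to a STAT site, TTCNNNGAA. Igtp lies at chr11:58199306-58199605 (+), Gbp2 at chr3:142620413-142620712 (+), Irf1 at chr11:53769764-53770063 (+) and Ifit1 at chr19:34640639-34640938 (+).
Igtp: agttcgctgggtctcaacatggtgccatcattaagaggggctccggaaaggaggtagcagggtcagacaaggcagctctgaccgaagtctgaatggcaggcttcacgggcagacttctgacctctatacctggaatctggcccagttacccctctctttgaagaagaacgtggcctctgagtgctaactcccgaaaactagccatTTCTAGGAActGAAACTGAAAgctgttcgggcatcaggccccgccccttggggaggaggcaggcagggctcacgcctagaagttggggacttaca
Gbp2: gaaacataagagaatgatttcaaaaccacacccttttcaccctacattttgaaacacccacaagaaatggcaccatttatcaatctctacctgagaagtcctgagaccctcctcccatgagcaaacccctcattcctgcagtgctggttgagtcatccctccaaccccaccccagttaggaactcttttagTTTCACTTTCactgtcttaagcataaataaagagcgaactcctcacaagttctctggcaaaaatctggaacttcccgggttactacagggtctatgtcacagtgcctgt
Irf1: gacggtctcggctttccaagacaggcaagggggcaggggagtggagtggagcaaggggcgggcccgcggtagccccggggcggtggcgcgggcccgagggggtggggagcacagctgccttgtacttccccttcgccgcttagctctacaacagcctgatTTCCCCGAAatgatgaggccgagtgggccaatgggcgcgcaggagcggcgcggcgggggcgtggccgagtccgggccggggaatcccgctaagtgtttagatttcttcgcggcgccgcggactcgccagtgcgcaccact
Ifit1: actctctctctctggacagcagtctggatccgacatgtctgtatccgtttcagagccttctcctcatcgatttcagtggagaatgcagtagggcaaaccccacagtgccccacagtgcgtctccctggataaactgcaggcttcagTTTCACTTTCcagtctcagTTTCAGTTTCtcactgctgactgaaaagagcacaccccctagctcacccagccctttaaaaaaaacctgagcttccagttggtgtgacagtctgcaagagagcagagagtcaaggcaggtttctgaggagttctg

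The response element core began 34 bases before the start of Igtp, next to a STAT site at 45, and 59 bases before that of Gbp2. The printed Irf1 promoter held a STAT site at 90 bases before its start and no response element core. Ifit1 held 2 cores, at 104 and 85 bases. Promoters were at hand for 26 of the 34 members. Of these, 16 (61.5%) held the core, against 3.99% of 27025 genes with a promoter of that length, and 7 (26.9%) held the STAT site, against 9.55%. Matches of the core may overlap each other, as in Irgm1, where 2 began 30 and 24 bases before the start. Among the members with a promoter, 6 of the 11 that were higher at day 49 of the NANOS2 KO series held the core and 4 the STAT site. Of the 5 that were tested and not called, 3 held the core and 1 the STAT site, and of the 10 whose counts were too low to test, 7 and 2. A match is a description of letters and not a measured binding site.

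Levels are given as deposited, in CPM, that is, each count divided by the library total and scaled to a common total. They carry no correction for gene length, so levels of different genes are not compared. Total counts ran from 1336742 to 4370138 in NANOS2 KO libraries and from 1901743 to 5279746 in sorted libraries, so that 3 counts equalled 0.686 to 2.24 CPM and 0.568 to 1.58 CPM. Nanos2 itself had 0 counts in all 18 NANOS2 KO libraries and 2 counts over the 10 sorted libraries, so it does not check the genotype labels. All 10 Sertoli markers were detected in both sets, with a summed level of 13303 to 15870 CPM in NANOS2 KO testes and 6891 to 11574 CPM in sorted cells. The 7 spermatid markers summed to 3.39 to 9.03 CPM in NANOS2 KO testes and 1086 to 10964 CPM in sorted cells, and the 6 Leydig markers to 2519 to 6575 CPM and 13.8 to 44.4 CPM. The labels do not state that replicates came from different animals; p-values measure only the spread between these libraries, which may be technical. In bulk RNA, fewer cells of a type and less RNA per cell cannot be told apart.

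Across the 9 days of the NANOS2 KO series, 1 library stood apart in its interferon-stimulated genes: day 49 replicate 2. The summed level of the 34 members was 1082 CPM there, 499 CPM in day 49 replicate 1 and 412 to 530 CPM in the 16 libraries of the other days. Of the 22 members that passed the filter on low counts, 15 were at least 2-fold above their median over the 18 libraries in day 49 replicate 2, against 0.82% of the 13045 genes tested. Of these 22, Oas2 and Rtp4 passed the filter only with the libraries of day 49, so a high level there is part of why they were tested. In the other 17 libraries 0 to 3 members reached that mark. For 14 members day 49 replicate 2 was the highest of the 18 libraries, as it was for 2.43% of all genes tested. Day 49 replicate 1 departed in other genes: it was the highest library for 17.5% of all genes tested and for 2 of the 22 members.

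**Figure D1:**
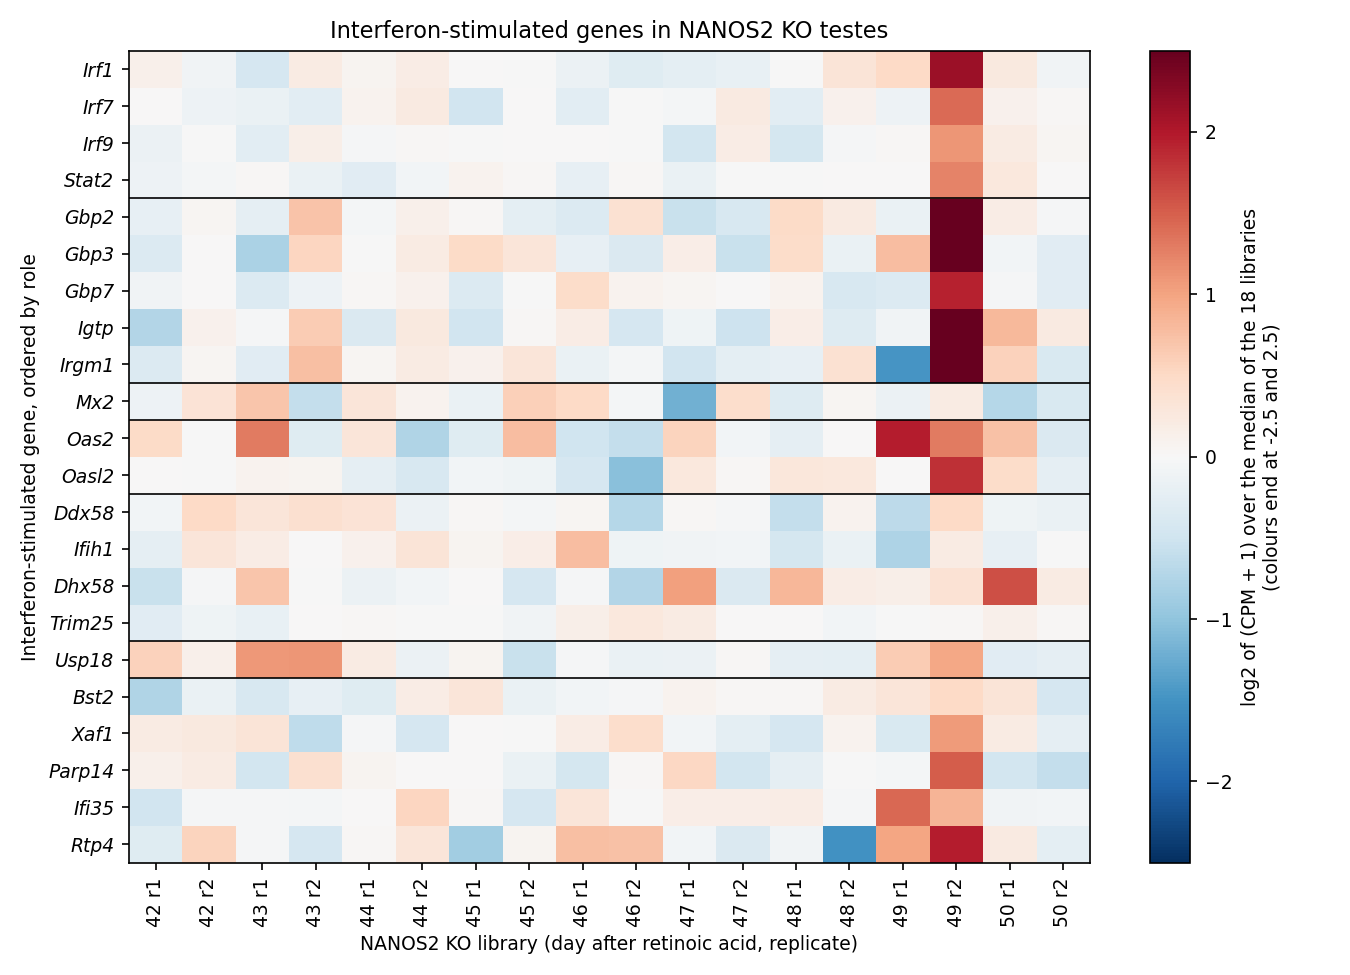
Each cell gives the log2 of (CPM + 1) of a member in a NANOS2 KO library minus the median over the 18 libraries, for the 22 members that passed the filter on low counts, with lines between roles and colours that end at -2.5 and 2.5. The column of day 49 replicate 2 is red from Irf1 to Irgm1, while Trim25 and Mx2 are pale in it.

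The transcription factors of the interferon response were all high in day 49 replicate 2. Irf1, a factor raised by interferon gamma, was at 77.7 CPM in that library and 24.3 CPM in day 49 replicate 1, against 12.4, 16.8 and 21.4 CPM (lowest, median and highest) in the 16 libraries of the other days. Stat2, the STAT of type I signalling, was at 120 CPM in day 49 replicate 2, 50.3 CPM in replicate 1, and 41.1, 50.1 and 60.2 CPM on the other days. For both genes 1 library lay above all others; replicate 1 of the same day was just above the other days for Irf1 and at their median for Stat2. Irf9, the DNA-binding partner of STAT2, stood at 75.9 CPM in day 49 replicate 2 and 35.3 CPM in replicate 1, with 25.0 to 40.2 CPM on the other days. Irf7, which amplifies type I interferon production, stood at 23.8 and 7.52 CPM in these libraries, with 5.68 to 9.94 CPM on the other days. Exons of Irf9 overlap those of Rnf31 on the same strand, and exons of Irf7 and Irf1 overlap genes on the other strand; no source used here says whether counting used the strand.

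The widest gaps were found among the inducible GTPases. Igtp, an immunity-related GTPase that acts on pathogen vacuoles, was at 43.7 CPM in day 49 replicate 2 and 4.05 CPM in replicate 1, against 2.21, 4.36 and 8.37 CPM on the other days. Gbp2, a guanylate-binding protein, was at 52.0 CPM and 6.36 CPM in the 2 libraries of day 49, against 4.55, 7.21 and 12.4 CPM on the other days. In both, replicate 1 lay inside the range of the other days and replicate 2 was over 4 times the highest of the other 17 libraries, at 5.22 times for Igtp and 4.19 times for Gbp2. Gbp3 read 53.1 CPM in replicate 2 and 12.7 CPM in replicate 1, with 3.64 to 10.7 CPM on the other days, and Gbp7 read 99.3 and 19.7 CPM, with 19.0 to 35.3 CPM. Irgm1, a regulator of the other immunity-related GTPases, was highest of all 18 libraries in day 49 replicate 2 (78.4 CPM) and lowest in day 49 replicate 1 (4.05 CPM), while the other days ran from 9.10 to 22.6 CPM. Members of these families resemble each other, and exons of Igtp overlap those of Irgm2, so the split of reads among them is uncertain.

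**Figure D2:**
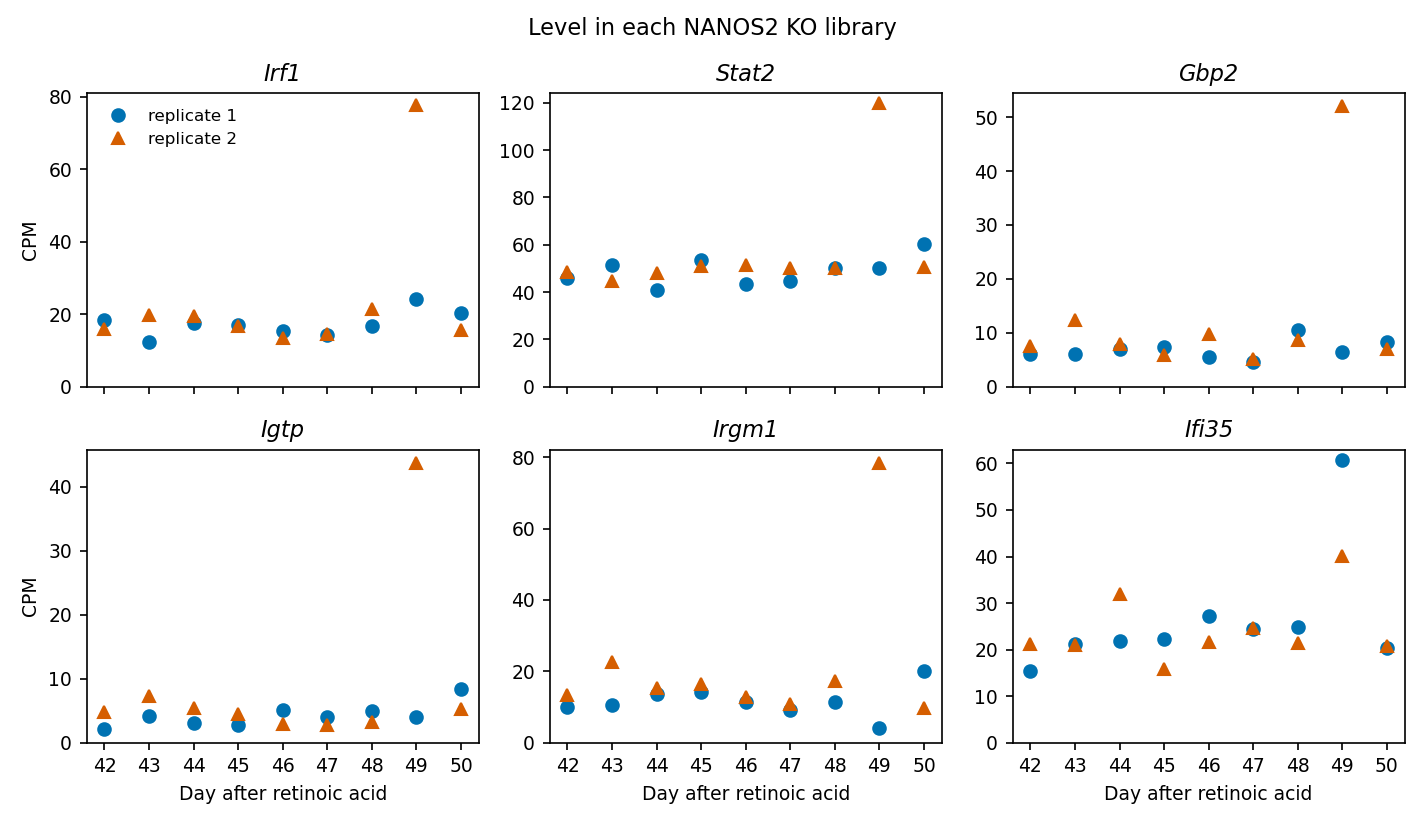
CPM of 6 members in each NANOS2 KO library by day after retinoic acid, with circles for replicate 1 and triangles for replicate 2. For Irf1, Stat2, Gbp2, Igtp and Irgm1 the triangle of day 49 lies above all other points, while for Ifi35 both day 49 points, at 60.7 and 40.1 CPM, lie above the other 16.

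Among the oligoadenylate synthetase family, whose members sense double-stranded RNA or resemble those that do, Oasl2 followed the same library. It was at 55.6 CPM in day 49 replicate 2, 15 CPM in replicate 1, and 6.73, 14.9 and 21.1 CPM on the other days. Oas2 was higher in day 49 replicate 1 (9.26 CPM, 16 counts) than in replicate 2 (5.42 CPM, 15 counts), against 0.567, 1.55 and 5.46 CPM on the other days, so replicate 2 overlapped the other days. Oas1a reached 4 and 8 counts in the 2 libraries of day 49, or 2.31 and 2.89 CPM against at most 1.69 CPM on the other days, and Oas3 and Oasl1 had at most 4 counts in any NANOS2 KO library.

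Other effectors divided. Parp14, an ADP-ribosyltransferase, was at 29.3 CPM in day 49 replicate 2 and 9.26 CPM in replicate 1, with 5.98 to 14.2 CPM on the other days. Rtp4 was at 10.1 and 4.63 CPM, with 0 to 3.82 CPM on the other days, so both libraries of day 49 lay above the rest. Xaf1, a promoter of apoptosis, was at 41.2 and 14.5 CPM, with 11.9 to 26.2 CPM on the other days. Ifi35 was at 40.1 CPM in replicate 2 and 60.7 CPM in replicate 1, with 15.4, 21.6 and 32.0 CPM on the other days; here both libraries lay above the others and replicate 1 was the higher. Bst2, which tethers viruses to the cell surface, was at 32.5 and 28.3 CPM, with 13.2 to 28.8 CPM on the other days.

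Several members often used as marks of a type I response had 12 counts or fewer in every NANOS2 KO library. Ifit1, an RNA-binding inhibitor of translation, had 4 counts in day 49 replicate 2 and 0 to 7 counts on the other days. Ifit2 had 8 counts there and 0 to 12 on the other days, and Ifit3 had 9 and 1 to 10, or 3.25 CPM against at most 3.04 CPM. Rsad2 (viperin) and Mx1 had 2 counts each, and the chemokine Cxcl10 had 4, within the range of the other days. Other untested members exceeded all other libraries in day 49 replicate 2 by more: Isg15, a ubiquitin-like modifier, with 15 counts against at most 7, Zbp1, a sensor of Z-form nucleic acid, with 10 against at most 4, and Ifi44 with 5 against at most 3. Mx2 belongs to the Mx GTPases and is annotated as a polymorphic pseudogene. At 4.70 CPM in that library, it lay inside the 1.14 to 6.98 CPM of the other days.

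The 4 members grouped here as RNA sensors, apart from the oligoadenylate synthetases, did not stand apart in day 49 replicate 2. Trim25, a ubiquitin ligase of the pathway of RIG-I, was at 157 CPM in day 49 replicate 2 and 153 CPM in replicate 1, with 127, 154 and 185 CPM on the other days. Ddx58 (RIG-I) was at 27.1 CPM in replicate 2 and 11.6 CPM in replicate 1, within the 11.2 to 27.2 CPM of the other days. Ifih1 (MDA5) was at 17 CPM in replicate 2, with 10.5 to 25.5 CPM on the other days. In replicate 1 Ifih1 was at 8.10 CPM, the lowest of the 18 libraries. Dhx58 (LGP2) was at 7.59 CPM in replicate 2 and 6.36 CPM in replicate 1, with 2.99 to 19.4 CPM on the other days. Usp18, a protease that removes ISG15 and dampens the receptor, read 6.14 CPM in replicate 2, with 1.49 to 6.78 CPM on the other days.

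The tests carried this split, with the weight of 1 library in them. In edgeR's quasi-likelihood F test over the 9 days, 3 of the 22 tested members differed by day, namely Gbp3 (Benjamini-Hochberg adjusted p = 0.0178), Irf1 (adjusted p = 0.0230) and Ifi35 (adjusted p = 0.0290), against 0.583% of all genes tested. With day 49 set against the mean of the other 8 days, 14 of 22 members were higher and 0 lower, while 2.76% of all genes tested were higher and 0.299% lower (3.06% in all). The 14 include Oas2 and Rtp4, whose calls are no fair test, as the day 49 libraries let them through the filter; of the 20 members that pass it without day 49, 12 were higher. The median log2 difference was 1.04 over these 20 (1.14 over the 22) and 0.00 over all genes tested. By role, 4 of 4 transcription factors and 5 of 5 inducible GTPases rose, as did Oasl2, Ifi35 and Parp14, while 0 of 4 RNA sensors passed. The log2 difference was 2.56 for Igtp (SE 0.38, adjusted p = 0.000733), 2.35 for Gbp3 (SE 0.30, adjusted p = 0.0001), 1.69 for Irf1 (SE 0.22, adjusted p = 0.000129) and 1.21 for Ifi35 (SE 0.17, adjusted p = 0.000391). Of the other 8 among these 12, the smallest difference was 0.79 for Irf9 (adjusted p = 0.0209) and the largest 2.11 for Gbp2 (adjusted p = 0.00135).

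Without day 49 replicate 2 most of these calls were gone. With either library of day 49 left out, that day is 1 library, which is assumed to vary like the libraries of the other days, so the p-values rest on their spread. Without replicate 2, the median log2 difference at day 49 was 0.06 over the 23 tested members and -0.02 over all genes tested. Replicate 1, the library left at day 49, was the highest of all 18 libraries for 17.5% of all genes tested. In the fit without replicate 2, Ifi35 (log2 1.53) and Oas2 (log2 2.38) were higher and Irgm1 (log2 -1.65) was lower. Gbp2 was at -0.12, Gbp7 at -0.25, Igtp at -0.03 and Irf7 at -0.02, none of them past the threshold, and Gbp3 and Irf1 missed the F test with adjusted p of 0.571 and 0.546. Without day 49 replicate 1, 13 members were higher, against 0.377% of all genes tested, and the median over the tested members was 1.43. In that fit, which tests the library already seen to be high, Ifi35 and Oas2 missed the threshold and Xaf1 passed it. Without both libraries of day 49, 0 of 20 members passed the edgeR F test over the days, against 0.839% of all genes tested. At an unadjusted p under 0.05 stood 1 member and 1413 of 12986 genes. The F test of Ifi35 also missed the threshold without either library of day 48, or without day 42 replicate 1, day 43 replicate 1, day 45 replicate 2 or day 49 replicate 1, at adjusted p of 0.0531 to 0.268, and that of Irf1 without day 42 replicate 1 (adjusted p = 0.0547). DESeq2 called 6 of the 14 members at day 49 (Gbp7, Ifi35, Irf1, Irf9, Oasl2 and Stat2), gave no adjusted p for 7 and put Irgm1 at 0.137.

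On the other 8 days no tested member differed from the mean of the rest by edgeR or by DESeq2. At an unadjusted p under 0.05 edgeR counted 3 of 22 members at day 42, 1 at day 43, 2 at day 46 and 1 at day 50. It counted 0 at days 44, 45, 47 and 48. Of all 13045 genes tested, 1541, 983, 677 and 847 reached that mark at days 42, 43, 46 and 50. At days 44, 45, 47 and 48, 444, 439, 399 and 964 genes did. By adjusted p, 0.184% of all genes tested were called at day 42, 0.069% at day 43 and 0% at days 44, 45 and 46. The share was 0.00767% at day 47, 0.261% at day 48 and 0.107% at day 50. The nearest was Usp18 at day 43, with 6.68 and 6.78 CPM in its 2 libraries against 1.49 to 4.63 CPM in the other libraries save day 49 replicate 2 (log2 1.28, SE 0.33, adjusted p = 0.233). Dhx58 was at 19.4 and 6.68 CPM at day 50, so only 1 of the 2 libraries was above the rest (log2 1.09, SE 0.33, adjusted p = 0.325). Of the members with the smallest p on each remaining day, Trim25 had a log2 difference of -0.22 at day 42 (adjusted p = 0.400), Oasl2 -0.51 at day 44 (adjusted p = 0.998) and -0.88 at day 46 (adjusted p = 0.937), Ifi35 -0.41 at day 45 (adjusted p = 1), Gbp2 -0.88 at day 47 (adjusted p = 1) and Rtp4 -1.43 at day 48 (adjusted p = 0.701). Along a straight line over the days, 0 members passed by either tool, and edgeR called 0.736% of all genes tested. An unadjusted p under 0.05 by edgeR was found for 10 of the 22 members and 1952 of the 13045 genes. The smallest p belonged to Bst2, with a slope of 0.07 log2 a day (SE 0.02, adjusted p = 0.150), from 13.2 and 20.4 CPM at day 42 to 28.8 and 16.9 CPM at day 50.

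**Figure D3:**
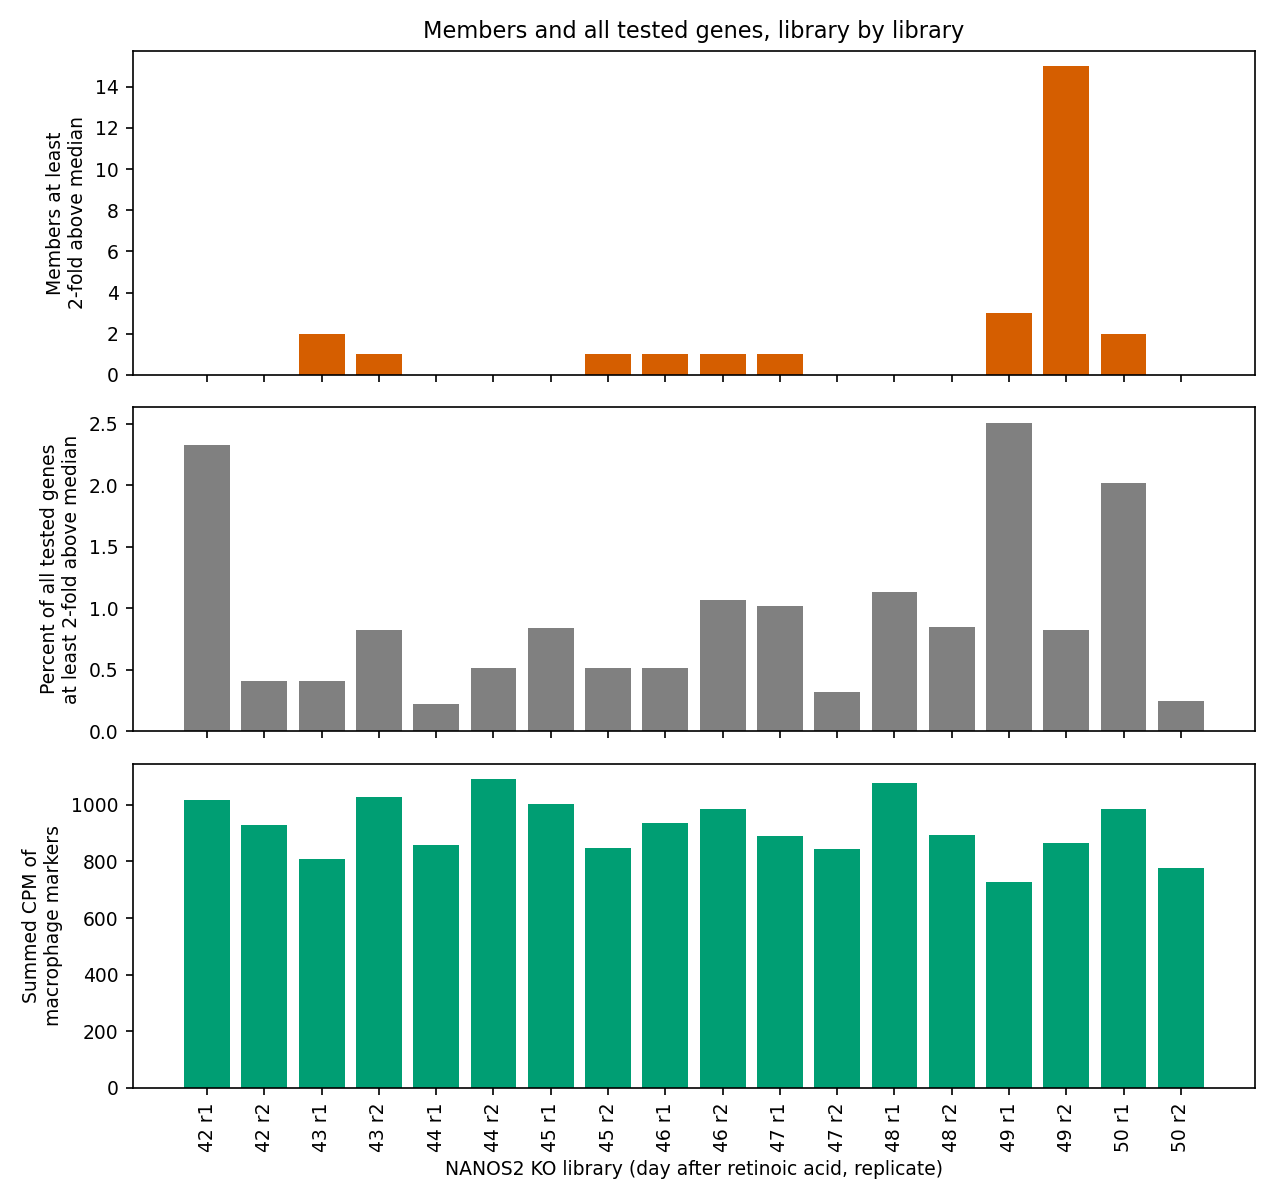
For each NANOS2 KO library, the bars give the number of the 22 tested members at least 2-fold above their 18-library median (top), the percent of all 13045 tested genes past the same mark (middle) and the summed CPM of 12 macrophage markers (bottom). Day 49 replicate 2 has 15 members in the top panel, 0.82% in the middle panel and 865 CPM in the bottom panel, within the 727 to 1092 CPM of the series.

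Other genes of the pathway were taken from lists chosen with earlier results of these data known. The 9 interferon genes gave 6 counts in all over the 18 NANOS2 KO libraries and 0 in either library of day 49; Ifnb1 and Ifng were at 0 in every NANOS2 KO library. Of 12 tested genes of nucleic acid sensing and its adaptors and 6 tested negative regulators, 0 passed in edgeR; among the most abundant of these, Mavs was at 151 CPM and Ptpn11 at 249 CPM in day 49 replicate 2, both within the other days.

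Of 22 tested interferon-stimulated genes outside the 34, 9 were higher at day 49 and 0 lower, with a list median of 0.62; Gbp6 and Ifi47 passed the filter only with day 49, and of the other 20, 7 were higher. Iigp1, another immunity-related GTPase, was at 92.8 CPM in replicate 2 and 11.0 CPM in replicate 1, with 3.74 to 16.4 CPM on the other days (log2 2.84, SE 0.36, adjusted p = 0.0001). Gbp4 stood at 43.7 and 8.10 CPM and Gbp6 at 26.7 and 2.89 CPM, with at most 15.8 and 5.65 CPM on the other days. Antigen presentation genes moved with them: 12 of 13 tested were higher and 0 lower, with a median of 1.58. Tap1, a subunit of the peptide transporter, was at 118 CPM in replicate 2 and 37.0 CPM in replicate 1, with 13.9 to 28.8 CPM on the other days (log2 2.02, SE 0.22, adjusted p = 1.34e-05). Its partner Tap2 was at nearly the same level in both, at 49.5 and 48.6 CPM against 12 to 24.8 CPM, and H2-K1, a class I heavy chain, was at 767 and 445 CPM against 224 to 349 CPM. Without day 49 replicate 2 the median log2 difference was 0.79 over the antigen presentation genes and -0.16 over the other interferon-stimulated genes. In that fit it was -0.09 over the sensing genes, -0.11 over the negative regulators and -0.02 over all genes tested.

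Over all 13045 genes tested, 30 (0.23%) were at least 2-fold higher in day 49 replicate 2 than in every other NANOS2 KO library. Of these 30, 10 were members, 15 stood in the pathway lists, and the other 5 were H2-Q2, H2-Q4, H2-Q6, Uba7 and Tnfaip2, named after their values were seen. The first of them, Nlrc5, the activator of class I genes and likewise singled out by its value, was at 53.5 CPM against at most 6.21 CPM elsewhere in the series, 8.61 times the next library. These genes were ranked by the values of that library, so the counts describe it and are no test.

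Markers of cells that could bring such transcripts were read in the same libraries. The 12 macrophage markers in the tables, 12 of 12 detected, summed to 865 CPM in day 49 replicate 2 and 727 CPM in replicate 1, with 777 to 1092 CPM on the other days. The 8 markers of T and NK cells summed to 7.59 and 5.21 CPM, with 1.26 to 8.98 CPM on the other days, and the 4 in the tables for B, plasma and plasmacytoid dendritic cells to 0.723 and 3.47 CPM, with 0.458 to 5.46 CPM. The 4 neutrophil markers had 0 counts in both libraries of day 49. None of these sums was higher in day 49 replicate 2 than in all the other libraries. The part of these cells in the result was not tested. Most of the T and NK cell sum in day 49 replicate 2 was Cd4, at 3.97 CPM (11 counts). Gzma, at 1.08 CPM (3 counts), was at its highest in that library. The 7 spermatid markers were at their highest sum there, 9.03 CPM against 3.39 to 8.01 CPM, and their part in the result was not tested. Most of that sum was Spaca1, at 7.59 CPM (21 counts) against 2.99 to 7.32 CPM on the other days. Izumo1 had 3 counts and Acrv1 had 1, while Prm1, Prm2, Tnp1 and Tnp2 had 0 counts in that library.

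In sorted Sertoli cells, levels were lower and 15 of the 34 members passed the filter on low counts. The members summed to 168 to 256 CPM in the 10 libraries. Of the 15, 1 differed among the 5 stage groups, Oasl2 (edgeR F test, adjusted p = 0.0291), against 8.11% of all genes tested. An unadjusted p under 0.05 was found for 3 of the 15 members and 3133 of the 14308 genes. Oasl2 was at 63.4 and 32.6 CPM in the 2 libraries of group A (mean 48.0, SD 21.8), 33.1 and 14.7 CPM in B, 5.08 and 12.2 CPM in C, 28.7 and 30.8 CPM in D, and 56.6 and 48.7 CPM in E. Both libraries of stages IV-VI were thus below the other 8, while the ranges of A, B, D and E overlapped in part. Group C was lower than the mean of the other groups by a log2 difference of -2.06 (SE 0.44, adjusted p = 0.0264), where 2.66% of all genes tested were called and 0.706% were lower. This call was lost without C replicate 1 (log2 -1.57, adjusted p = 0.255) and, by a small margin, without either library of D or of E (log2 -2.02 to -2.10, adjusted p from 0.0516 to 0.0635), and the F test in the same 5 fits (adjusted p from 0.0712 to 0.0965).

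No member differed in groups A, B, D or E by edgeR or by DESeq2. By adjusted p, edgeR called 1.68, 0.0419, 8.66 and 0.524% of all genes tested there. At an unadjusted p under 0.05 stood 1, 3, 0 and 3 of the 15 members. Of all 14308 genes tested, 1966, 1294, 3261 and 1698 reached that mark. The smallest p belonged to Oasl2 in A (log2 1.06, SE 0.34, adjusted p = 0.154) and in E (log2 1.16, SE 0.34, adjusted p = 0.158), and to Trim25 in B (log2 0.67, SE 0.24, adjusted p = 0.394) and in D (log2 -0.53, SE 0.26, adjusted p = 0.245). Trim25 read 66.8 and 63.4 CPM in B and 32.8 and 36.1 CPM in D. Irf9, second in the F test (adjusted p = 0.173), read 6.53 and 9.75 CPM in C and 19.9 and 22.8 CPM in E. In Xaf1 the 2 libraries of C were far apart, at 0.725 and 10.1 CPM, and in Dhx58 those of A, at 19.5 and 67.0 CPM.

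**Figure D4:**
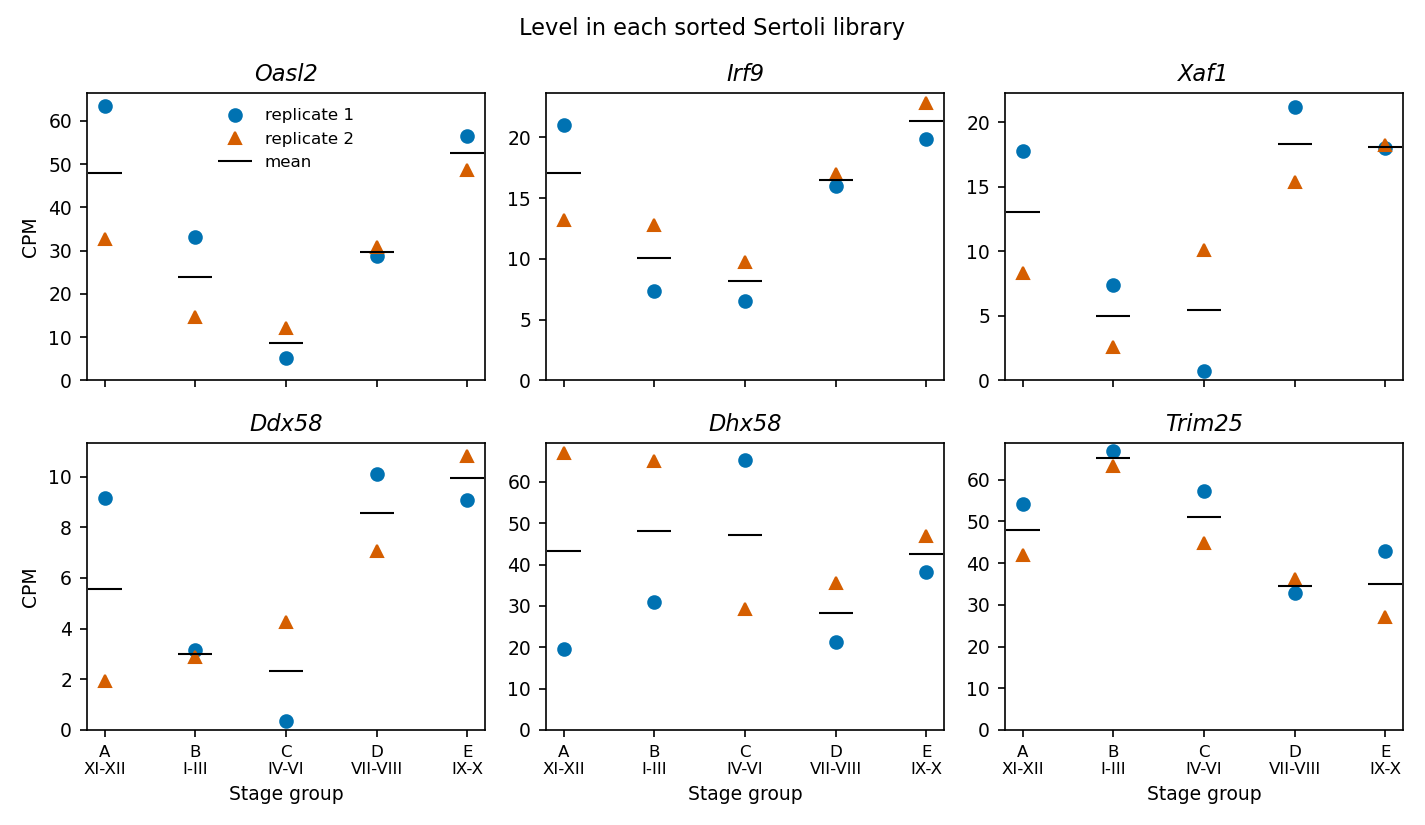
CPM of 6 members in each sorted Sertoli library by stage group, with circles for replicate 1, triangles for replicate 2 and a bar at their mean. Oasl2 is lowest in group C, at 5.08 and 12.2 CPM, and for Dhx58 the replicates of A, B and C lie farther apart than the group means.

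The sets were last compared with each other, with the mean of the 9 NANOS2 KO days set against the mean of the 5 sorted groups. Tissue against sorted cells, strain and the presence of germ cells differ together between them and cannot be told apart. Of 23 members tested, 20 were higher and 3 lower in NANOS2 KO testes, on a background in which 38.1% of 15752 genes were higher and 47% lower (85.1% called in all). The share of members called thus lay near that of all genes. The filter on low counts bears on the direction: Ifit2, Oas2, Mx2, Gbp3, Igtp, Irgm1, Parp14 and Rtp4 did not pass it in the sorted libraries alone and entered through the NANOS2 KO libraries. Of the other 15 members, 12 were higher and 3 lower, with a median of 1.09. The median log2 difference was 1.70 over the members and -0.17 over all genes. With library size as the only scaling the median of all genes moved to 0.20 and that of the members to 2.06, with 20 members higher and 2 lower; all genes then split into 7529 higher and 5842 lower, in place of 5994 and 7408. For 12 members every NANOS2 KO library lay above every sorted library, as did 23.6% of all genes, and for 1 member, Dhx58, every one lay below, as did 18.3%. The 12 include Gbp3, Irgm1 and Parp14, which entered through the NANOS2 KO libraries, so a high level there is part of why they were tested.

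By fitted difference the 6 largest rises were those of Parp14, Ifit2, Oas2, Irgm1, Rtp4 and Gbp7, and of these only Gbp7 passed the filter in the sorted libraries alone. Parp14 ran from 0 over a median of 0.290 to 1.12 CPM in sorted cells and from 5.98 over 9.56 to 29.3 CPM in NANOS2 KO testes (log2 4.75, SE 0.36, adjusted p = 9.39e-12). Irgm1 ran from 0.191 over 0.697 to 2.23 CPM and from 4.05 over 13.1 to 78.4 CPM (log2 3.79, SE 0.40, adjusted p = 3.39e-09). Gbp7 ran from 0.363 over 1.86 to 3.44 CPM and from 19.0 over 25.3 to 99.3 CPM (log2 3.61, SE 0.28, adjusted p = 1.24e-11). In these genes the sets did not overlap, also where day 49 is left out. Oas2 (log2 3.81, SE 0.61) and Rtp4 (log2 3.69, SE 0.59) rested on 7 and 12 counts over the 10 sorted libraries. Ifit2 had 3 counts over the sorted libraries and 100 over the NANOS2 KO libraries, a pooled ratio of 26.9 with an exact 95% interval of 8.96 to 133 for counting error only.

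The 3 lower members were Dhx58, Oasl2 and Usp18. Dhx58, the RIG-I relative without signalling domains, ran from 19.5 over 36.9 to 67.0 CPM in sorted cells and from 2.99 over 5.66 to 19.4 CPM in NANOS2 KO testes (log2 -3.01, SE 0.22, adjusted p = 2.48e-12). Its exons overlap those of Dhx58os on the other strand, so reads of the 2 genes may not be told apart. Oasl2 had a log2 difference of -1.15 (SE 0.18, adjusted p = 1.97e-06) with overlapping sets, and Usp18 of -0.70 (SE 0.20, adjusted p = 0.00206), which missed the threshold with library size alone (log2 -0.33, adjusted p = 0.125). The calls of Ifi35 and Xaf1 rested on small differences (log2 0.31 and 0.58); Ifi35 missed the threshold without both libraries of day 49 (log2 0.18, adjusted p = 0.195) and in 8 of 28 fits with 1 library left out (adjusted p from 0.0512 to 0.0959), and Xaf1 without B replicate 2, C replicate 1 or day 49 replicate 2 (adjusted p from 0.0536 to 0.0925). Ifit2 and Rtp4 lost their calls without day 48 replicate 1 (adjusted p = 1), with log2 values of 3.48 and 3.22.

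Marker sums of other cells moved with this comparison. The 12 macrophage markers summed to 727 to 1092 CPM in NANOS2 KO testes and 148 to 404 CPM in sorted cells; Fcgr1 was at 0 in all sorted libraries, Csf1r and Lyz2 were at most 2.24 and 1.05 CPM, and Mrc1 and Aif1 made up most of the sorted sum. The 6 endothelial markers summed to 87.5 to 180 CPM and 12.2 to 42.1 CPM, and the 5 peritubular myoid markers to 544 to 758 CPM and 80.8 to 340 CPM. The macrophage marker Aif1 and the myoid marker Actg2 went the other way. Aif1 was at 4.92 to 12.1 CPM in NANOS2 KO testes and 48 to 250 CPM in sorted cells. Actg2 was at 5.04 to 13.6 CPM and 41.3 to 294 CPM. The part of these cell types in the difference was not tested. Genes of the pathway outside the 34 were also mostly higher in NANOS2 KO testes: 12 of 13 tested sensing genes and adaptors (list median 3.35), 21 of 22 other interferon-stimulated genes (median 3.44), 9 of 13 antigen presentation genes (median 0.67), 8 of 10 receptor and JAK-STAT genes (median 0.81) and 3 of 6 negative regulators (median 0.27). Lower were 2 antigen presentation genes, 2 negative regulators and the receptor chain gene Ifngr2 (log2 -1.32), and 0 genes of the other 2 lists. Of all genes, 38.1% were higher. The filter on low counts bears on these counts and medians too. In the sorted libraries alone, only Irf3, Irf8, Mavs, Myd88, Tbk1, Ticam1 and Tlr3 of the sensing list passed it. Of the other interferon-stimulated genes, only Cmpk2, Eif2ak2, Gbp6, Herc6, Ifi27, Lgals3bp and Trim21 did. The rest of these 2 lists needed the NANOS2 KO libraries to be tested, so their counts and medians are no fair test of direction. Of the antigen presentation genes, H2-Aa and Psmb8 did not pass the filter in the sorted libraries alone. Nor did the negative regulator Ptpn6.

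**Figure D5:**
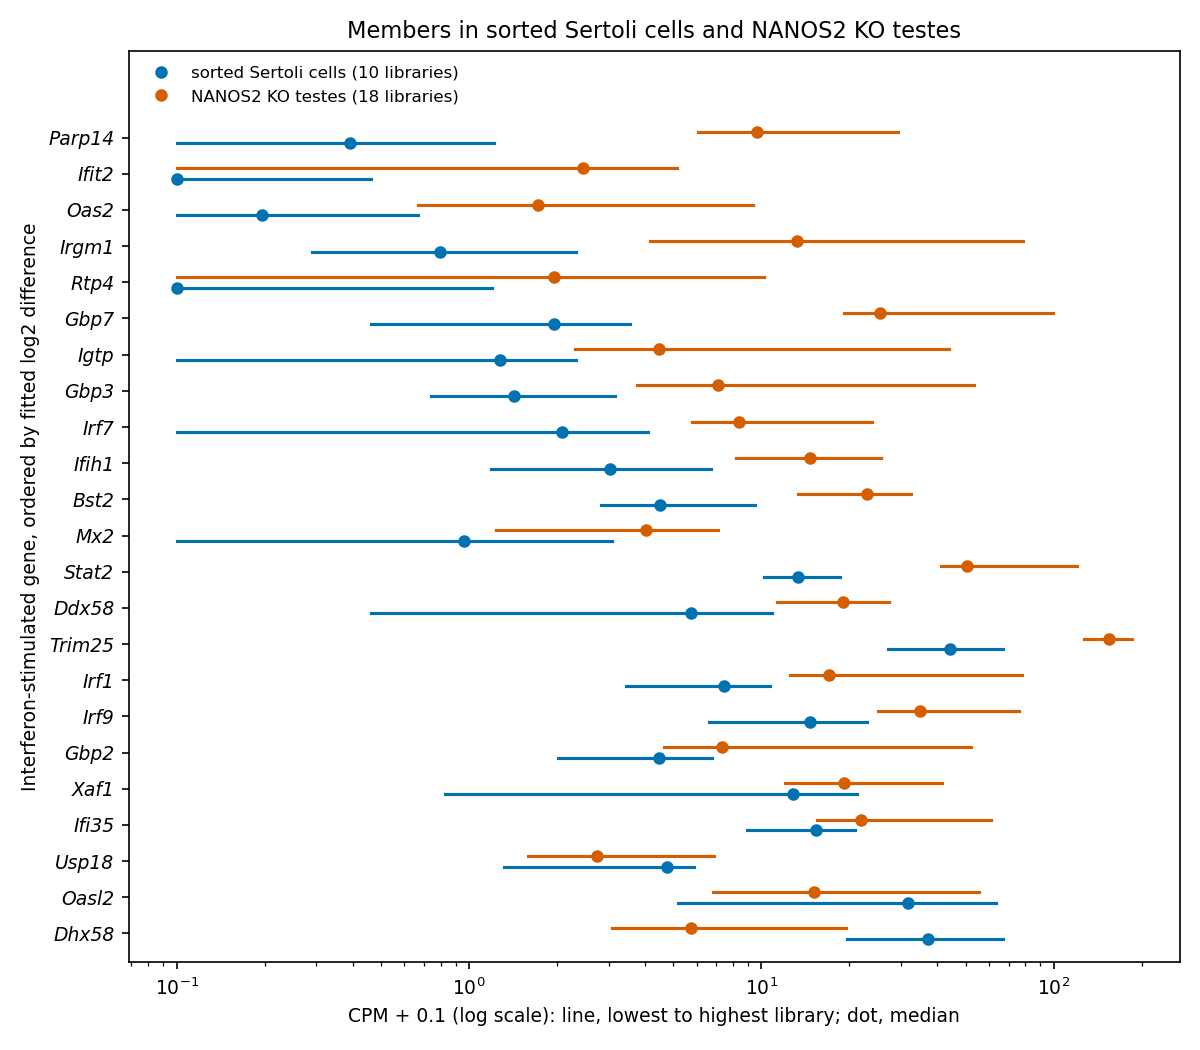
For the 23 members tested in the joint fit, lines run from the lowest to the highest library and dots mark the median of CPM + 0.1 on a log axis, in blue for the 10 sorted libraries and in orange for the 18 NANOS2 KO libraries. The orange range lies wholly to the right for 12 members, among them Parp14, Gbp7 and Stat2, and wholly to the left for Dhx58. Of the 12, Gbp3, Irgm1 and Parp14 did not pass the filter on low counts in the sorted libraries alone.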

How the data were processed

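Polyadenylated RNA was sequenced on an Ion Proton from Ion Total RNA-seq libraries, per the labels' protocols. Bowtie, TopHat and Cufflinks and the build mm10 are named in the submitters' processing notes. Not given in the sources used here are how reads were counted, on which annotation and with what use of strand. The authors deposited raw read counts per gene symbol. A second table the authors deposited is named for FPKM but holds CPM: up to the common scale, each value equals the count over the library total within 0.0005, with no gene length. These CPM values are the levels printed. The repeated header of 1 day 42 count column was settled by matching those values. The labels' extraction text names germ cells as sorted, while the samples are labelled Sertoli.

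In 27 rows the symbol had become a date; they hold 0.215 to 0.332% of counts and stayed out of library sizes and tests. All 28 libraries were used. Counts were fitted with edgeR 4.0.16 (R 4.3.3): filterByExpr, TMM scaling, glmQLFit and glmQLFTest, with Benjamini-Hochberg adjustment over all genes tested and a threshold of 0.05. NANOS2 KO libraries (13045 genes), sorted libraries (14308) and both (15752) were fitted separately, each group having 2 libraries. Alternatives were RLE scaling, library size alone, no filter on low counts, DESeq2 1.42.0, each library left out in turn, day 49 left out and a block for the replicate number. Tested on simulated data with 12844 genes, the day 49 contrast recovered 78% of 2-fold and 100% of 4-fold changes; with 13952 genes, that of group D recovered 29% and 91%.

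Values are described for the members that passed in each comparison (at most 10, smallest p first) or the one with the smallest p, for the 6 largest rises and falls between the sets, and otherwise as ranges and counts. Up to 3 called genes, or else the most abundant, are named from each pathway list; 1 gene of these lists is not reported here. The members and lists were chosen with earlier results of these data known. Promoters come from RefSeq. Intervals and the limit of 3 counts cover counting error only.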

Additional observations from a re-analysis of the deposited data

How the results depend on the processing

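The count of members that differed over the NANOS2 KO days was 3 in the edgeR fit described above, 14 with no filter on low counts, 6 in DESeq2, 0 without day 49 and 1 to 10 with 1 library left out; the cause was not tested. At day 49, DESeq2 called 6 members in place of 14, having given no adjusted p to 7, and leaving out 1 library gave 3 to 15. Without day 49 replicate 2 the log2 difference changed sign for Gbp2 (-0.12), Gbp7 (-0.25), Igtp (-0.03), Irf7 (-0.02) and Irgm1 (-1.65), while over the other libraries left out it reached at most 2.84, 2.03, 3.33, 1.58 and 2.55, each without day 49 replicate 1. With no filter, 1 member passed at day 50, 1 in group A, 2 in group C, 1 in group E and 3 in the F test over stage groups, where the filtered fits gave 0, 0, 1, 0 and 1; of all genes in the fits with no filter, 0.695, 3.12, 3.43, 2.25 and 9.54% were called, so 3 of 34 members over the stage groups and 1 of 34 in groups A and E lie near that share. With 1 library left out the counts ran from 0 to 1 at day 50, along the line over days, in group C and in group D, from 0 to 2 in the F test over stage groups, and from 22 to 24 between the sets. RLE scaling changed no call of a named member (42 of 42), and library size alone changed 1 of 42 (Usp18 between the sets).

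The labels tie no replicate number to a shared animal or day. Deviations of same-numbered NANOS2 KO libraries of different days had r from -0.269 to 0.128, with 1 of 36 pairs over 0.1. Among sorted libraries r ran from -0.111 to 0.430 and 6 of 10 pairs were over 0.1, not every pair, so the numbers were not taken to pair the samples; the block moved the calls over all genes in the F test over stage groups from 1160 to 1668. With the replicate number as a block, 14 members passed at day 49, 3 over the days, 1 over the stage groups and 20 between the sets, where Gbp2, Ifi35 and Xaf1 missed the threshold, beside 2.58, 0.483, 11.7 and 78.5% of all genes. Over all genes, calls at day 49 numbered 399, against 252 with library size alone and 766 with no filter. Calls in the F test over days numbered 76, against 966 with no filter and 205 in DESeq2, and over stage groups 1160, against 2756 and 1932. Depth limits the IFIT genes, Mx1 and viperin, with 12 counts or fewer in every NANOS2 KO library.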
